A study of Mus musculus with 18 samples.

Results

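A set of 9 genes that shape the potassium currents of the heart was followed across 18 libraries: Kcnd2, Kcnd3, Kcnip2, Kcna5, Kcnv2, Kcnq1, Kcnh2, Kcnj2 and Kcnj11. They were chosen by gene name. All 9 were among the 35560 genes present in both deposited count tables, and all 9 had enough counts to be tested, with 14623 genes tested in all. Potassium channels end the cardiac action potential: when they open, potassium leaves the myocyte and the membrane returns to its resting voltage. Mouse hearts repolarise quickly, mainly through a large transient outward current and other fast voltage-gated currents, whereas the slow and rapid delayed rectifiers carry more of this work in large mammals. Lower levels of the channels behind the transient outward current are a known feature of hypertrophied and failing hearts, where longer action potentials can favour arrhythmia.

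The RNA came from bulk heart tissue of male wild-type C57BL/6 mice. Isoproterenol (ISO), which stimulates beta-adrenergic receptors and so overworks the heart, was injected subcutaneously once a day into all mice (2.5 mg/kg/day, 21 days). The groups were ISO with polystyrene (PS) particles of 100 nm by gavage at 50 mg/kg/day, ISO with PS particles of 1 µm at the same dose, and ISO with water by gavage, each with 6 libraries over the same 21 days. Each PS group was set against ISO alone to ask what oral particles add to the stressed heart, and 1 µm was set against 100 nm. No group went without ISO, the labels do not say which chamber was sampled, and ages are not given in the sources used here. Provider 1 (batch 1) made 5 libraries of 100 nm PS, 4 of 1 µm PS and 3 of ISO, and provider 2 (batch 2) made 1, 2 and 3 of them.

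Levels are given as CPM, the usual counts-per-million scale, after TMM scaling of the libraries, and are not corrected for batch. Log2 fold changes come from edgeR's quasi-likelihood test with batch as a term, their standard error is abbreviated SE, and adjusted p values are Benjamini-Hochberg values over all 14623 genes, with 0.05 as the threshold. Counts of libraries above or below the ISO mean of their batch only describe, because libraries of a batch share the same ISO mean. The share of all genes with such counts was not computed. In bulk tissue, fewer cells of a type and less RNA per cell cannot be told apart. Total counts per library were 14032257 to 22600570. All 12 cardiac myocyte markers were present in every library, and 0 passed in any comparison. The summed CPM of these markers was 51100 to 107000 with 100 nm PS (median 63600), 59500 to 135000 with 1 µm PS (median 66500) and 37100 to 123000 with ISO alone (median 103000). In batch 1 the sums were 51100 to 65400, 59500 to 69900 and 37100 to 104000 in that order. In batch 2 they were 107000 with 100 nm PS, 104000 and 135000 with 1 µm PS and 102000 to 123000 with ISO alone. The medians thus also reflect how the batches were divided among the groups. Of 7 smooth muscle and pericyte markers, 4 were higher with each particle size. Of 7 fibroblast markers, 2 were higher with 100 nm PS and 0 with 1 µm PS. Of 7 endothelial markers, 1 was higher with 100 nm PS and 0 with 1 µm PS, and the log2 fold change was positive for 7 of 7 with each size (median 0.61 with 100 nm PS and 0.45 with 1 µm PS). Their summed CPM was 1570 to 2650 with 100 nm PS, 1660 to 2530 with 1 µm PS and 490 to 1830 with ISO alone. Of 3 skeletal muscle markers tested, 2 were lower with 100 nm PS and 0 passed with 1 µm PS. All 6 skeletal muscle markers, tested or not, summed to 117 CPM in ISO replicate 2 and to 1.05 to 7.61 CPM in the other libraries. Markers of the conduction system, of Schwann cells and neurons, of macrophages and of adipocytes gave 0 calls in both comparisons with ISO. The part of these cells in the results for the channel genes was not tested. ISO replicate 2 stood apart, with a score of 237.1 on the first principal component against -30.8 to 24.9 in the other libraries and with 13152 genes that had a count. ISO replicate 1 took 44.7% of its joined counts from mitochondrially encoded genes, against 13.9% to 32.1% in the other libraries. Fold changes of the 9 genes without both libraries are given gene by gene.

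Promoter windows from RefSeq (build GRCm38.p6, not the GRCm39 build named for the counts) were matched for 6 of the 9 genes in the table used here, each as 250 bases before and 50 bases after a gene start. The windows of 3 genes are shown because they belong to the pore subunits whose levels are contrasted most in what follows: Kcnd3 at chr3:105451640-105451939 on the plus strand, Kcnd2 at chr6:21215096-21215395 on the plus strand and Kcna5 at chr6:126535506-126535805 on the minus strand. Capitals mark CACCC or its reverse complement GGGTG, the core of the binding motif of Krüppel-like factors, a family whose member Klf15 is known in mice to control the circadian rhythm of Kcnip2.
Kcnd3: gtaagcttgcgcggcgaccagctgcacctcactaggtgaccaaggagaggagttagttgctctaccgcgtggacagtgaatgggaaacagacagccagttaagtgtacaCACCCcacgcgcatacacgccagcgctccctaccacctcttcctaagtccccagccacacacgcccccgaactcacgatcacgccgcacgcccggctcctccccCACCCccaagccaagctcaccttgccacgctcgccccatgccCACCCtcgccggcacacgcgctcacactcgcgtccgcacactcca
Kcnd2: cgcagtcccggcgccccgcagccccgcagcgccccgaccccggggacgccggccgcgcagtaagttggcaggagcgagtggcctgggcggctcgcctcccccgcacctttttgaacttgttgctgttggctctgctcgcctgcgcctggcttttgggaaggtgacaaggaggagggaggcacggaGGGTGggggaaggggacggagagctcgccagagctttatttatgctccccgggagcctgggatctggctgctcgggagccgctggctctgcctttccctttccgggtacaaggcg
Kcna5: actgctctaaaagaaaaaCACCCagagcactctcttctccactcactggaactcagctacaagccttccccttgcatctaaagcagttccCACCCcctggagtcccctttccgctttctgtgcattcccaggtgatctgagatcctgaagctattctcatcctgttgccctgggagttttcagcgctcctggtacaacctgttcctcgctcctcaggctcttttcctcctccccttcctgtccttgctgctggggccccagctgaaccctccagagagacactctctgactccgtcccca
The Kcnd3 window held CACCC 3 times, the Kcnd2 window once and the Kcna5 window 2 times on either strand, and 57.5% of 32851 windows of the same length held it at least once. Of the windows not shown, those of Kcnip2 and Kcnh2 held CACCC 4 times each and that of Kcnj2 held it 1 time. Both Kcnd windows were rich in GC (64% for Kcnd3 and 68.7% for Kcnd2, with 25 and 26 CpG dinucleotides), whereas the Kcna5 window had 55% GC and 4 CpG dinucleotides. The median window had 52.7% GC and 7 CpG dinucleotides. These matches describe the letters in the windows and were not tied to any measurement of binding.

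Fewer transcripts of Kcnd3 and Kcnv2 were found in hearts exposed to 100 nm PS than in hearts with ISO alone, and these were the genes among the 9 that passed the test. Of the 9 genes, 2 were lower, 0 were higher and 7 did not pass with 100 nm PS, where 9.57% of all tested genes passed in either direction, 3.88% higher and 5.69% lower. None of the 9 passed with 1 µm PS (0 of 9), where 7.39% of all tested genes passed, 2.89% higher and 4.5% lower. At an unadjusted p under 0.05 there were 6 of 9 with 100 nm PS, against 28.6% of all genes, and 3 of 9 with 1 µm PS, against 27% of all genes. The median log2 fold change of the 9 genes was -0.46 with 100 nm PS and -0.08 with 1 µm PS, beside -0.02 and 0 over all tested genes. Both comparisons use the same ISO libraries.

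**Figure D1:**
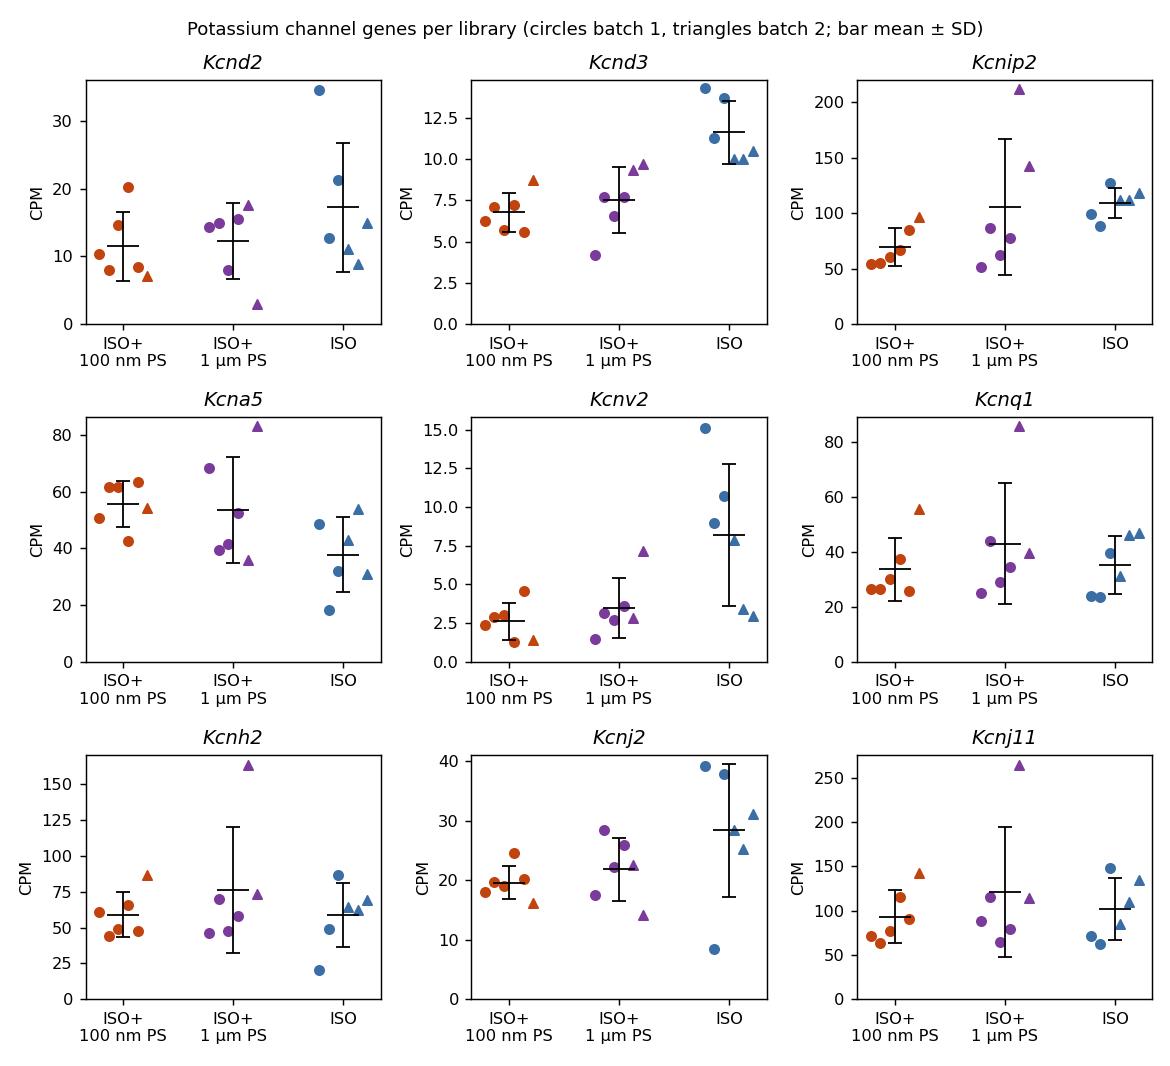
Level of each of the 9 potassium channel genes in every library, in CPM on a linear axis from 0, with 100 nm PS and 1 µm PS left of ISO alone. Points are libraries (circles batch 1, triangles batch 2) and bars give the mean and SD of 6 libraries. For Kcnd3, all 6 libraries of each PS group lie below the lowest ISO library at 10 CPM, whereas for the other genes the groups overlap.

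Kcnd3 encodes Kv4.3, a pore subunit of the transient outward current. Its level was 5.57 CPM at the lowest, 6.7 at the median and 8.75 at the highest with 100 nm PS, 4.22, 7.72 and 9.69 CPM with 1 µm PS, and 10, 10.9 and 14.3 CPM with ISO alone. Every library of both PS groups was below every ISO library. Ranges that do not overlap with ISO were found in 2.37% of all tested genes with 100 nm PS (0.745% lower) and in 1.55% with 1 µm PS (0.424% lower). With 100 nm PS, Kcnd3 averaged 6.78 ± 1.19 CPM, against 11.6 ± 1.89 CPM with ISO alone (SD, n = 6 each), a fold of 0.598, or -0.74 on the log2 scale (SE 0.20, edgeR adjusted p = 0.0291). Hearts with 1 µm PS averaged 7.54 ± 2 CPM, and the difference, -0.62 on the log2 scale (SE 0.19, edgeR adjusted p = 0.0569), did not pass. The difference was larger among the libraries of batch 1 than among those of batch 2. In batch 1 the levels were 5.57 to 7.25 CPM with 100 nm PS, 4.22 to 7.72 CPM with 1 µm PS and 11.3 to 14.3 CPM with ISO alone. In batch 2 they were 8.75 CPM with 100 nm PS, 9.36 and 9.69 CPM with 1 µm PS and 10 to 10.5 CPM with ISO alone. Fitted to batch 1 alone, the log2 fold change was -1.04 with 100 nm PS (edgeR adjusted p = 0.0234) and -1 with 1 µm PS (adjusted p = 0.0407), and fitted to batch 2 alone it was -0.22 (adjusted p = 0.863) and -0.12 (adjusted p = 0.846). A batch-by-group term, tested by edgeR for all genes, had an adjusted p = 0.452 for Kcnd3 (0.0349 before adjustment).

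The Kcnd3 call with 100 nm PS lay near the threshold. It ended when 100 nm PS replicate 1, 2, 3, 5 or 6 was left out, with an edgeR adjusted p of 0.0612, 0.0544, 0.0609, 0.0543 and 0.0578 in that order, while the log2 fold change stayed between -0.83 and -0.63 with any single library left out. Without ISO replicates 1 and 2 together, the log2 fold change was -0.61 (edgeR adjusted p = 0.0835), and -0.50 with 1 µm PS (adjusted p = 0.114). With all libraries, limma voom with quality weights gave -0.38 (adjusted p = 0.292). For 1 µm PS, the edgeR adjusted p was 0.039 without ISO replicate 2 and 0.0422 without ISO replicate 5, with log2 fold changes from -0.69 to -0.50 and adjusted p values up to 0.113 over all single libraries left out. Of all tested genes, 13.6% passed with 1 µm PS without ISO replicate 2 and 9.56% without ISO replicate 5.

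Kcnv2 encodes Kv8.2, a silent subunit that forms no channel alone but alters Kv2 channels when it joins them, and it is best known from photoreceptors. It had the lowest mean CPM of the 9 genes in every group. With 100 nm PS its level was 1.31 CPM at the lowest, 2.65 at the median and 4.59 at the highest, with 1 µm PS it was 1.45, 3.01 and 7.13 CPM, and with ISO alone it was 2.96, 8.4 and 15.1 CPM. The groups overlapped, because ISO replicates 5 and 6 of batch 2 (3.39 and 2.96 CPM) lay among the PS libraries. In batch 1 the groups were apart, with 1.31 to 4.59 CPM with 100 nm PS and 1.45 to 3.62 CPM with 1 µm PS, against 8.96 to 15.1 CPM with ISO alone. The share of all tested genes that were apart in batch 1 was not computed. With 100 nm PS, the mean of 2.61 ± 1.2 CPM against 8.16 ± 4.58 CPM with ISO alone (SD, n = 6 each) corresponded to a fold of 0.304, or -1.72 on the log2 scale (SE 0.44, edgeR adjusted p = 0.0236), and 6 of 6 libraries were below the ISO mean of their own batch. Its mean was 3.49 ± 1.92 CPM with 1 µm PS and the log2 fold change was -1.16 (SE 0.43, edgeR adjusted p = 0.0918), with 5 of 6 libraries below the ISO mean of their batch. In batch 1 alone, the 1 µm difference was -2.08 (edgeR adjusted p = 0.0289), and in batch 2 alone it was 0.07 (adjusted p = 0.965), where 1 µm PS replicate 6 had the group's highest level. Without that library, the 1 µm difference was -1.65 (edgeR adjusted p = 0.0304), in a fit where 4.06% of all tested genes passed. Over all single libraries left out it ran from -1.65 to -0.95 (adjusted p up to 0.191), and without ISO replicates 1 and 2 together it was -0.88 (adjusted p = 0.21). The 100 nm call ended without 100 nm PS replicate 1 (edgeR adjusted p = 0.0535), without replicate 6 (adjusted p = 0.0698) and without ISO replicates 1 and 2 together (-1.34, adjusted p = 0.0947). The counts behind Kcnv2 were 26 to 210 per library, the fewest of the 9 genes at both ends.

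Kcnd2 encodes Kv4.2, which forms the fast transient outward current of the mouse ventricle together with Kv4.3. Its levels were 7.15, 9.43 and 20.2 CPM (lowest, median and highest) with 100 nm PS, 3.01, 14.7 and 17.6 CPM with 1 µm PS, and 8.91, 13.8 and 34.5 CPM with ISO alone. The groups overlapped widely and the highest level was that of ISO replicate 1. The log2 fold change was -0.77 with 100 nm PS (SE 0.36, edgeR adjusted p = 0.169), with 6 of 6 libraries below the ISO mean of their batch, and -0.54 with 1 µm PS (SE 0.35, adjusted p = 0.337), with 5 of 6. Neither passed. The values moved with single libraries, from -0.96 to -0.49 with 100 nm PS and from -1.02 to -0.29 with 1 µm PS, and the values nearest to 0 were those without ISO replicate 1 (edgeR adjusted p = 0.394 and 0.607). With ISO replicates 1 and 2 both left out they were -0.65 with 100 nm PS (edgeR adjusted p = 0.329) and -0.44 with 1 µm PS (adjusted p = 0.496). The SD was 43.9% of the mean for Kcnd2 and 17.6% of the mean for Kcnd3 with 100 nm PS, and 54.8% and 16.2% with ISO alone.

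Kcnip2 encodes KChIP2, the cytoplasmic calcium-binding subunit without which the mouse ventricle loses its transient outward current. Its levels were 54.5, 63.9 and 96.8 CPM with 100 nm PS, 51.4, 82.3 and 212 CPM with 1 µm PS, and 88.7, 112 and 127 CPM with ISO alone. With 100 nm PS, replicates 1 to 5 lay below every ISO library and replicate 6, the library of batch 2, lay inside the ISO range. The log2 fold change was -0.46 with 100 nm PS (SE 0.22, edgeR adjusted p = 0.172), with 6 of 6 libraries below the ISO mean of their batch. The 1 µm value was -0.08 (SE 0.21, adjusted p = 0.849), and the batches went opposite ways. The fit without both unusual ISO libraries gave -0.41 with 100 nm PS (edgeR adjusted p = 0.327) and -0.04 with 1 µm PS (adjusted p = 0.942). The 4 libraries of batch 1 had 51.4 to 86.7 CPM with 1 µm PS, all below the 88.7 to 127 CPM of ISO in that batch. The 2 libraries of batch 2 had 143 and 212 CPM, above the 112 to 118 CPM of ISO there. The share of all tested genes with such separations, within a batch or among replicates 1 to 5 with 100 nm PS, was not computed. Fitted by batch, the log2 fold change with 1 µm PS was -0.60 in batch 1 (edgeR adjusted p = 0.131) and 0.62 in batch 2 (adjusted p = 0.212). The edgeR batch-by-group term of Kcnip2 had an adjusted p = 0.274 (0.00774 before adjustment), the lowest of the channel genes, and 12 of all tested genes passed that test.

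The balance among the subunits of the transient outward current was compared as ratios of counts per kilobase within each library, which do not depend on library scaling. The log2 ratio of Kcnd2 to Kcnd3 averaged 1.15 ± 0.68 with 100 nm PS, 1.02 ± 1.19 with 1 µm PS and 0.90 ± 0.50 with ISO alone (SD, n = 6 each). The differences from ISO within batch were 0 with 100 nm PS (exact permutation test within batch, two-sided, p = 0.996) and -0.04 with 1 µm PS (exact permutation p = 0.957). The log2 ratio of Kcnip2 to the sum of both pore subunits averaged 2.83 ± 0.58, 3.19 ± 0.86 and 2.90 ± 0.58 in the same order of groups. Its differences from ISO were 0.22 with 100 nm PS (exact permutation p = 0.455) and 0.48 with 1 µm PS (exact permutation p = 0.0743, and 0.446 after adjustment over the 6 ratio comparisons). The smallest p that these permutations can give is 0.00446 for 100 nm PS and 0.00286 for 1 µm PS. Neither ratio differed beyond the spread between libraries.

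Kcna5 encodes Kv1.5, the pore subunit of an ultrarapid delayed rectifier that contributes to repolarisation of mouse ventricle and of human atrium. It had the largest positive log2 fold change of the 9 genes with both sizes. Its levels were 42.6, 57.9 and 63.5 CPM with 100 nm PS, 35.8, 46.9 and 83 CPM with 1 µm PS, and 18.2, 37.6 and 53.9 CPM with ISO alone. The groups overlapped, with ISO replicate 2 lowest and 1 µm PS replicate 6 highest of all libraries. The log2 fold change was 0.65 with 100 nm PS (SE 0.25, edgeR adjusted p = 0.104), with 6 of 6 libraries above the ISO mean of their batch, and 0.54 with 1 µm PS (SE 0.24, adjusted p = 0.158), with 5 of 6. Neither passed. Without ISO replicate 1, the 100 nm difference was 0.84 (edgeR adjusted p = 0.0498), in a fit where 12.9% of all tested genes passed. It was the one passing value among those with 1 library left out, which ran from 0.46 to 0.84. Without ISO replicates 1 and 2 together it was 0.59 (edgeR adjusted p = 0.174) with 100 nm PS and 0.49 (adjusted p = 0.211) with 1 µm PS.

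The delayed rectifier genes did not pass in either comparison. Kcnq1 encodes the pore of the slow delayed rectifier, and its mutations cause long QT syndrome in people. Its levels were 25.7, 28.3 and 55.6 CPM with 100 nm PS, 25, 37.1 and 85.8 CPM with 1 µm PS, and 23.6, 35.5 and 46.8 CPM with ISO alone. Kcnh2 encodes ERG, the pore of the rapid delayed rectifier and the channel that many drugs block. Its levels were 43.9, 55.1 and 86.6 CPM with 100 nm PS, 46.2, 63.8 and 163 CPM with 1 µm PS, and 20.3, 63.3 and 86.3 CPM with ISO alone. The groups overlapped for both genes. For both, 1 µm PS replicate 5 was the highest of all libraries. For Kcnh2, ISO replicate 1 at 20.3 CPM was the lowest, below every PS library, and for Kcnq1 ISO replicates 1 and 2 (24.1 and 23.6 CPM) lay just below the lowest PS library. The log2 fold change of Kcnq1 was 0.15 with 100 nm PS (SE 0.21, edgeR adjusted p = 0.665) and 0.36 with 1 µm PS (SE 0.21, adjusted p = 0.275). That of Kcnh2 was 0.22 with 100 nm PS (SE 0.28, edgeR adjusted p = 0.632) and 0.41 with 1 µm PS (SE 0.27, adjusted p = 0.34). For Kcnh2, 5 of 6 libraries with 100 nm PS and 6 of 6 with 1 µm PS were above the ISO mean of their batch. Without ISO replicate 3, the highest ISO library for Kcnh2, its 1 µm difference was 0.75 (edgeR adjusted p = 0.0393), and without 1 µm PS replicate 5 it was 0.14 (adjusted p = 0.76). Of all tested genes, 16.3% passed with 1 µm PS without ISO replicate 3. With 100 nm PS, leaving out 1 library gave 0.04 to 0.61 for Kcnh2, the lowest without ISO replicate 1. When ISO replicates 1 and 2 were both left out, Kcnh2 had -0.02 with 100 nm PS (edgeR adjusted p = 0.972) and 0.20 with 1 µm PS (adjusted p = 0.664). In the same fit Kcnq1 had 0.03 (edgeR adjusted p = 0.959) and 0.24 (adjusted p = 0.542). The 95% interval of the 100 nm difference ran from -0.31 to 0.61 for Kcnq1 and from -0.38 to 0.81 for Kcnh2, so moderate changes either way lay within the error.

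Kcnj2 encodes Kir2.1, the inward rectifier that holds the resting voltage of the ventricular myocyte. Its levels were 16.1, 19.3 and 24.5 CPM with 100 nm PS, 14.2, 22.5 and 28.5 CPM with 1 µm PS, and 8.5, 29.8 and 39.1 CPM with ISO alone. The lowest of all 18 libraries was ISO replicate 2 at 8.5 CPM, and the other ISO libraries had 25.3 to 39.1 CPM, all above every 100 nm PS library. The share of all tested genes with such a gap was not computed. With all libraries, the log2 fold change was -0.61 with 100 nm PS (SE 0.28, edgeR adjusted p = 0.15) and -0.42 with 1 µm PS (SE 0.27, adjusted p = 0.314). Without ISO replicate 2 it was -0.89 with 100 nm PS (edgeR adjusted p = 0.00385) and -0.67 with 1 µm PS (adjusted p = 0.00947), so that both differences passed. Of all tested genes, 14.4% and 13.6% passed in that fit. Leaving out any other single library, neither difference passed, and the values nearest to 0 were -0.48 with 100 nm PS and -0.31 with 1 µm PS. Without ISO replicates 1 and 2 together the log2 fold change was -0.87 (edgeR adjusted p = 0.0208) and -0.66 (adjusted p = 0.0259) in the same order. Of all tested genes, 4.85% and 7.21% passed there.

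Kcnj11 encodes Kir6.2, the pore of the ATP-sensitive potassium channel that links the membrane to the energy state of the cell. Its levels were 63.2, 83.5 and 143 CPM with 100 nm PS, 64.4, 101 and 265 CPM with 1 µm PS, and 62.2, 97.6 and 148 CPM with ISO alone. The ranges lay on top of each other except for 1 µm PS replicate 5 at 265 CPM. The log2 fold change was 0.06 with 100 nm PS (SE 0.27, edgeR adjusted p = 0.91) and 0.26 with 1 µm PS (SE 0.26, adjusted p = 0.557). Without 1 µm PS replicate 5 the 1 µm difference was -0.03 (edgeR adjusted p = 0.955). Leaving out ISO replicates 1 and 2 together gave -0.12 with 100 nm PS (edgeR adjusted p = 0.846) and 0.10 with 1 µm PS (adjusted p = 0.861).

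**Figure D2:**
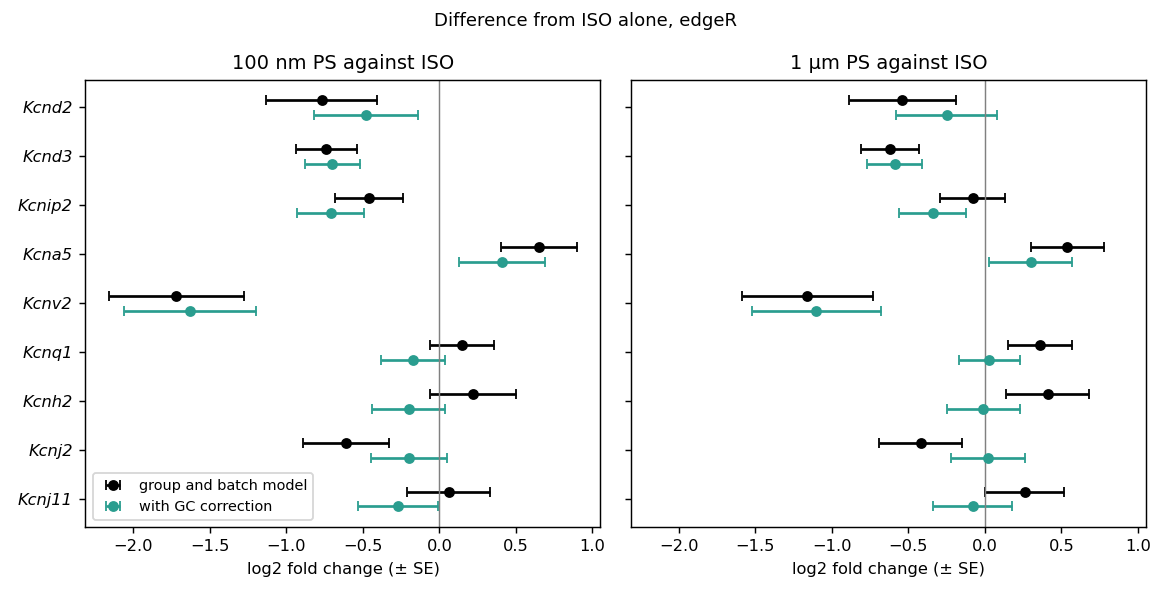
Log2 fold change of each gene with its SE against ISO alone, for 100 nm PS on the left and 1 µm PS on the right, from the model with group and batch (black) and from the same model after each library was corrected for GC content (green). In black, Kcnd2, Kcnd3, Kcnip2, Kcnv2 and Kcnj2 lie below 0 and Kcna5, Kcnq1, Kcnh2 and Kcnj11 above it at both sizes. In green, Kcnd3 and Kcnv2 stay close to their black points, and Kcnq1, Kcnh2 and Kcnj11 with 100 nm PS lie below 0.

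The particle sizes did not differ detectably for any of the 9 genes. With 1 µm PS against 100 nm PS, 0 of 9 genes passed and 0% of all tested genes passed, and 0 of 9 genes had an unadjusted p under 0.05, against 0.335% of all genes. DESeq2 and limma voom also called 0 genes in this comparison. The largest fitted difference was that of Kcnv2, at 0.56 on the log2 scale (SE 0.45, edgeR adjusted p = 1) and a 95% interval from -0.41 to 1.52. For Kcnd3 the difference was 0.12 with an interval from -0.3 to 0.54, and for Kcnip2 it was 0.38 with an interval from -0.09 to 0.86. For Kcna5 the interval ran from -0.63 to 0.41 around -0.11. Differences inside these intervals could not be told from 0 in this fit, whose spread was estimated with the ISO libraries included. Of 14623 genes, 49 had an unadjusted p under 0.05 by edgeR in this fit. There were 213 without ISO replicates 1 and 2 and 289 with only the PS groups, and limma voom gave 684. The absence of calls therefore does not show that the sizes are alike.

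With all libraries, the direction of the difference from ISO split the 9 genes by the GC content of their transcripts, with 1 exception. The GC content of the longest transcript was 41.2% for Kcnj2, 44.4% for Kcnd2, 48.3% for Kcnv2 and 49.1% for Kcnd3, and each of these had a negative log2 fold change with both sizes. It was 54.3% for Kcna5, 56.9% for Kcnq1, 57.1% for Kcnj11 and 61.3% for Kcnh2, and each of these had a positive one. Kcnip2, at 55.1%, was the exception, with a negative value among the genes above the median of 49.8% for all tested genes. The 100 nm values of Kcnq1 (0.15, SE 0.21), Kcnh2 (0.22, SE 0.28) and Kcnj11 (0.06, SE 0.27) were each smaller than their SE. Without ISO replicates 1 and 2 together, those of Kcnh2 and Kcnj11 were negative, so the split did not hold in that fit. When each library was corrected for its own trend with GC content, 0 of all tested genes passed in either comparison with ISO by edgeR, with 2950 at an unadjusted p under 0.05 for 100 nm PS and 2349 for 1 µm PS. For Kcnd3 and Kcnv2 with 100 nm PS the corrected values were close to the uncorrected ones, at -0.70 (SE 0.18) and -1.63 (SE 0.43), both with an edgeR adjusted p = 0.0873. Kcnj2 had -0.20 with 100 nm PS (adjusted p = 0.657) and 0.02 with 1 µm PS (adjusted p = 0.98) after the correction, and Kcnd2 had -0.48 (adjusted p = 0.436) and -0.25 (adjusted p = 0.731). Kcnq1, Kcnh2 and Kcnj11 changed sign with 100 nm PS, at -0.17, -0.20 and -0.27. Kcnip2 moved further from 0, to -0.71 with 100 nm PS (adjusted p = 0.104) and -0.34 with 1 µm PS (adjusted p = 0.46). Kcna5 kept 0.41 (adjusted p = 0.415) and 0.30 (adjusted p = 0.591).

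**Figure D3:**
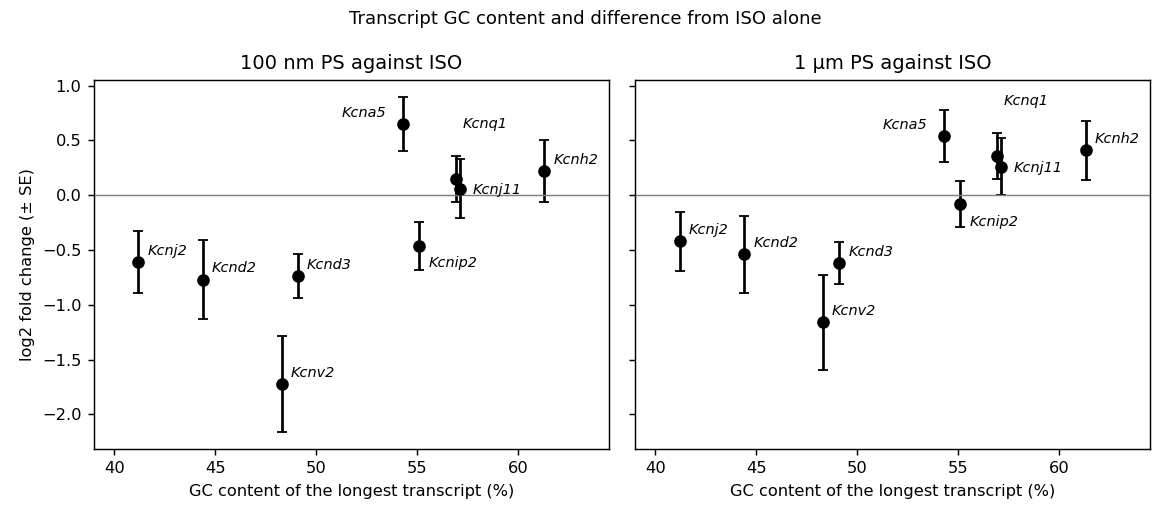
Log2 fold change against ISO alone with its SE, plotted against the GC content of the longest transcript of each of the 9 genes, for 100 nm PS on the left and 1 µm PS on the right. The 4 genes with the lowest GC content, from 41.2% to 49.1%, lie below 0 in both panels, and Kcnip2 is the one gene above 50% that does so.

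Levels of different genes can be compared only per length of transcript. In hearts with ISO alone, Kcnip2 had 35.1 ± 4.32 CPM per kilobase and Kcnj11 32.5 ± 11.1 (SD, n = 6), and their ranges overlapped. Kcnh2 (13.9 ± 5.29), Kcna5 (13.2 ± 4.59) and Kcnq1 (11.7 ± 3.46) followed and did not differ beyond their spread. Kcnj2 had 5.21 ± 2.04 CPM per kilobase, and its range ended below that of Kcnq1. Kcnd2 had 3.34 ± 1.83 CPM per kilobase, Kcnd3 1.62 ± 0.263 and Kcnv2 1.6 ± 0.897, with overlapping ranges between neighbours. With both particle sizes Kcnj11 stood first, at 29.7 ± 9.65 CPM per kilobase with 100 nm PS and 38.5 ± 23.3 with 1 µm PS, and Kcnip2 second, at 22.4 ± 5.54 and 33.9 ± 19.6. Kcna5 followed, at 19.5 ± 2.83 and 18.7 ± 6.53, and the order from Kcnh2 to Kcnv2 was that of ISO with Kcna5 moved ahead. Ranges of genes next to each other at the top of the order overlapped in each group, so the changes of place lay within the spread.

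**Figure D4:**
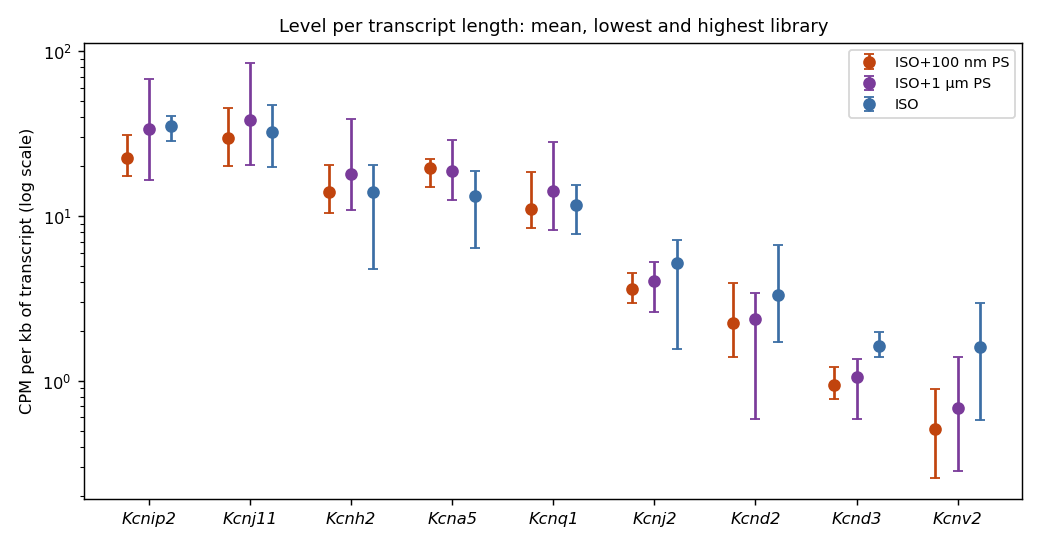
Level of each gene in CPM per kilobase of its longest transcript on a log axis, with 100 nm PS and 1 µm PS left of ISO alone. Points are means of 6 libraries and bars run from the lowest to the highest library, and the genes run from Kcnip2 at 35.1 CPM per kilobase in ISO to Kcnv2 at 1.6.

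Across the 18 libraries, with log2 CPM centred within batch, the 9 genes did not vary as a block. The highest Pearson r was 0.87, between Kcnq1 and Kcnj11, followed by 0.77 between Kcnd3 and Kcnv2 and 0.76 between Kcnq1 and Kcnh2, and the lowest was -0.57, between Kcnd3 and Kcna5. These values describe libraries that share their scaling, their groups and the unusual ISO replicates. Among 12487 other genes, those most like Kcnd3 were Reep1 and Asb14 (r = 0.90 each), those most like Kcnv2 were Ddx20 and Prkce (0.91 each), and those most like Kcnd2 were Rnf128 (0.94) and Chrm2 (0.93). Slc25a34 (0.91) and Slc22a3 (0.90) were most like Kcnip2, and Il4ra (0.90) and Cdc42ep4 (0.89) most like Kcna5. For Kcnq1 Arhgap44 (0.94) was the most alike, for Kcnh2 they were Llgl2 (0.94) and Cops7a (0.93), for Kcnj2 Ginm1 (0.95) and Tbce (0.94), and for Kcnj11 Ilrun (0.97) and Jph2 (0.96).

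The other potassium channel genes of the heart gave few calls. Of 26 other voltage-gated pore subunits 14 could be tested and of 15 accessory subunits 9, and 0 of either list passed in either comparison with ISO. The median log2 fold change was 0.08 with 100 nm PS and 0.22 with 1 µm PS for the pore subunits and 0.66 and 0.42 for the accessory subunits, beside -0.02 and 0 over all tested genes. Among the pore subunits, Kcnd1, another gene of the Kv4 family, had the smallest p with 100 nm PS (log2 fold change 1.18, SE 0.44, edgeR adjusted p = 0.087). Kcnc4 came next (1.76, SE 0.65, adjusted p = 0.0874), at 1.17 CPM with 100 nm PS and 0.335 CPM with ISO alone. Among the accessory subunits the smallest p was that of Kcne1, the partner of Kcnq1 in the slow delayed rectifier (0.65, SE 0.31, edgeR adjusted p = 0.175). Kcnd1 was scarce, at 1.44 ± 0.608 CPM with 100 nm PS and 0.685 ± 0.359 CPM with ISO alone (SD, n = 6 each). Two-pore channels (5 of 10 tested), calcium- and sodium-activated channels (9 of 12 tested) and HCN pacemaker channels (3 of 4 tested) gave 0 calls in both comparisons. Their median log2 fold changes were -0.05, 0.31 and 0.40 with 100 nm PS and -0.04, 0.29 and 0.53 with 1 µm PS. Of 9 tested among 14 other inward rectifier and ATP-sensitive channel subunits, 1 was lower with each size and 0 were higher.

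That gene was Kcnj3, a pore subunit of the channel through which acetylcholine slows the heart. Its levels were 11.6, 28.5 and 41.1 CPM with 100 nm PS, 16.5, 22.5 and 35.1 CPM with 1 µm PS, and 14.9, 50.4 and 64.7 CPM with ISO alone. The groups overlapped. The log2 fold change was -1.01 with 100 nm PS (SE 0.24, edgeR adjusted p = 0.0205) and -0.95 with 1 µm PS (SE 0.23, adjusted p = 0.0253). The call ended with 100 nm PS when its replicate 6 was left out (edgeR adjusted p = 0.0676), and with 1 µm PS when ISO replicate 4 or 1 µm PS replicate 1 or 3 was left out (adjusted p up to 0.0634). Without ISO replicates 1 and 2 together, the adjusted p was 0.0559 with 100 nm PS and 0.0442 with 1 µm PS. Atrial markers, which mark the tissue richest in this channel, summed to 333 to 3590 CPM with 100 nm PS, 241 to 933 CPM with 1 µm PS and 105 to 923 CPM with ISO alone, and 2 of 4 tested were higher with 100 nm PS, where replicate 1 held the 3590 CPM. Most of these sums was Nppa, at 320 to 2350, 217 to 915 and 99.4 to 909 CPM in the same order of groups. In that order the medians were 4.63, 2.33 and 2.34 CPM for Myl4 and 2.28, 1.61 and 0.306 CPM for Myl7. For Dkk3 they were 19, 13.1 and 3.89 CPM. The highest levels with 100 nm PS were 573 CPM for Myl4, 351 for Myl7, 176 for Sln and 139 for Dkk3, all in replicate 1. With 1 µm PS and ISO alone the highest were 3.95 and 4.97 CPM for Myl4 and 1.86 and 5.01 CPM for Myl7. Replicate 1 of 100 nm PS thus stood apart in several atrial markers. In the other libraries the sums, mostly Nppa, say little about atrial content. The part of atrial tissue in the Kcnj3 result was not tested.

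Among 20 transcription factors of cardiac repolarisation 18 were tested, with a median log2 fold change of -0.19 with 100 nm PS and 0.04 with 1 µm PS, and 1 was lower with each size. This was Mef2a, a myocyte enhancer factor, at 102 ± 20.5 CPM with 100 nm PS, 93.6 ± 22.9 CPM with 1 µm PS and 146 ± 54.8 CPM with ISO alone (SD, n = 6 each), with the same fitted difference of -0.74 on the log2 scale for both sizes (SE 0.15, edgeR adjusted p = 0.0125 and 0.0133). Without 100 nm PS replicate 6 the 100 nm value had an adjusted p = 0.0507. The 29 genes of channel trafficking and regulation, all tested, had a median of -0.16 with 100 nm PS and 0.03 with 1 µm PS. Flna, an actin crosslinker that binds Kv4 channels, was higher with 100 nm PS (0.76, SE 0.22, edgeR adjusted p = 0.0376) and with 1 µm PS (0.78, SE 0.21, adjusted p = 0.0353). Of 7 smooth muscle and pericyte markers, 4 were also higher with each size. The part of cells other than myocytes in the Flna values was not tested. Dlg1, a scaffold that anchors Kv1.5 and Kir2 channels, was lower with 100 nm PS (-0.47, SE 0.14, edgeR adjusted p = 0.0386) and did not pass with 1 µm PS (-0.43, SE 0.13, adjusted p = 0.0563). Leaving out 1 library ended the Flna call in 9 of 18 cases with 100 nm PS and in 7 of 18 with 1 µm PS, and the Dlg1 call in 10 of 18, with adjusted p values up to 0.106, 0.0747 and 0.0806 in that order. Without ISO replicates 1 and 2 together, Dlg1 no longer passed with 100 nm PS (-0.39, edgeR adjusted p = 0.0947). In that fit Flna (0.67 with 100 nm PS and 0.70 with 1 µm PS, edgeR adjusted p = 0.0411 and 0.0247) and Mef2a (-0.72 and -0.73, adjusted p = 0.023 and 0.015) still passed. With the GC correction the log2 fold changes with 100 nm PS were -0.76 for Kcnj3, -0.39 for Mef2a, 0.53 for Flna and -0.21 for Dlg1, and none passed (edgeR adjusted p from 0.1 to 0.38).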

How the data were processed

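Gene counts came from bulk poly(A) RNA-seq of 18 mouse heart libraries. Per the labels, 1 provider made the 12 libraries of batch 1 and another the 6 of batch 2. The deposited batch 1 table holds raw counts, and the deposited batch 2 table holds estimated counts, rounded here to whole numbers because 19.6% of its nonzero values are fractional. Per the submitters' processing notes, the tools were featureCounts 1.5.0-p3, HISAT2 2.0.5, fastp, DESeq2 and StringTie 1.3.3b, with no role given for any, and the build was GRCm39; the batch 2 counter and the use of strand are not given in the sources used here. Entries without a gene name (0.16% to 0.39% of a batch 1 library) were left out. Joining the tables by gene ID (22146 genes) or by symbol (13414) kept 98.9% to 99.5% of the counts in batch 1, and in batch 2 93.1% to 95.8% in PS libraries and 85.2% to 87.4% in ISO libraries. All columns matched a sample, and no pair of libraries looked like a duplicate (lowest chi-square per gene 14 over 23 pairs).

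edgeR 4.0.16 in R 4.3.3 fitted group and batch over all 18 libraries (TMM, filterByExpr minimum count 10, robust quasi-likelihood, 14 residual degrees of freedom). The 95% intervals took the SE times a t quantile at these 14 degrees of freedom. They are not part of the test, and can include 0 where its unadjusted p is under 0.05. Nothing in the labels beyond the separate titles says that libraries are separate mice, so p values measure the spread between libraries. Log2 CPM used a prior count of 2. Ratios were tested by exact permutation within batch. The GC correction removed a spline (5 degrees of freedom) fitted to the deviation of a library from the mean of its batch. Transcript GC content and length were those of the longest transcript in GENCODE M21 (99.8% of tested genes). Other alternatives used DESeq2 1.42.0 and limma 3.58.1. Scripts were tested on simulated data. The 9 genes, the other lists and the markers were chosen with earlier results of these data known. Of each other list, the rule named the 3 genes with the smallest p and those that passed; for each of the 9 genes, it named the 2 most alike over 18 libraries, of which 1 is not reported here.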

Additional observations from a re-analysis of the deposited data

Results flagged for a closer look

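In the 1 µm PS group, replicate 5 lay far above the other 5 libraries for 3 of the 9 genes. Its level was 85.8 CPM for Kcnq1, against 25 to 43.9 CPM in the other 1 µm libraries, 163 CPM for Kcnh2, against 46.2 to 73.1 CPM, and 265 CPM for Kcnj11, against 64.4 to 115 CPM. In each case the gap to the nearest library took more of the whole range of the group (0.689, 0.769 and 0.748 of it in that order) than Dixon's limit for 6 libraries. Chance gives such a gap in about 1 in 20 groups; 33 groups were examined and 3 exceeded the limit, all through this one library. It is 1 of the 2 libraries of batch 2 in its group, took 14.2% of its joined counts from mitochondrially encoded genes and had the highest summed cardiac myocyte markers, at 135000 CPM. The part of these in its channel levels was not tested.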

How the results depend on the processing

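The number of the 9 genes past the threshold with 100 nm PS, 2 in the test reported, was 0 with no batch term, in batch 2 alone, with the replicate block and with the GC correction, and 1 with no filter, with limma voom, with only the groups compared and without ISO replicates 1 and 2. With 1 µm PS, 0 as reported, it was 2 at an adjusted p under 0.1, in batch 1 alone and with DESeq2, and 1 with RLE factors, the stricter filter, voom and without ISO replicates 1 and 2. In the fit without ISO replicates 1 and 2, the gene that passed was Kcnj2 with each size, and Kcnd3 and Kcnv2 did not pass. Over all genes, 1399 with 100 nm PS became 2644 at an adjusted p under 0.1, 2603 with DESeq2, 717 with no filter, 709 without ISO replicates 1 and 2, 270 with only the groups compared, 4 in batch 2 alone, and 0 with no batch term, the block or the GC correction. The 1081 genes with 1 µm PS became 2328 at an adjusted p under 0.1, 2348 with DESeq2, 1731 with voom, 666 in batch 1 alone, 481 with no filter, 13 in batch 2 alone, and 0 with no batch term, only the groups compared, the block or the GC correction. Between sizes, batch 2 alone gave 2 genes. The GC correction without ISO replicates 1 and 2, chosen after seeing the data, also gave 0 genes and 0 members in each comparison with ISO.

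Leaving out 1 library gave 0 to 3 of the 9 genes and 183 to 2288 genes with 100 nm PS, 0 to 2 and 286 to 2385 with 1 µm PS, and 0 and 0 between sizes. Ratio differences ranged from -0.21 to 0.18, -0.34 to 0.45 and -0.14 to 0.34 for Kcnd2 to Kcnd3 (100 nm, 1 µm and between sizes) and for Kcnip2 from 0.02 to 0.33, 0.3 to 0.61 and -0.01 to 0.3. Fold changes of the 9 genes that changed sign on leaving out 1 library were Kcnj11 with 100 nm PS (-0.05 to 0.4 in all) and 1 µm PS (-0.03 to 0.56), Kcnip2 with 1 µm PS (-0.29 to 0.07) and, between sizes, Kcnd2 (-0.1 to 0.43), Kcnh2 (-0.01 to 0.27) and Kcnj11 (-0.02 to 0.31). None of these passed in any of the cases.

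Other sign changes, none of them past the threshold, were as follows. With 100 nm PS, Kcnq1 had -0.07 with no batch term, -0.01 in batch 1, -0.17 with the GC correction and -0.21 with that correction and without ISO replicates 1 and 2. Kcnh2 had -0.2 with the GC correction, -0.02 without these replicates and -0.32 with both. Kcnj11 had -0.13 with no batch term, -0.18 in batch 1, -0.01 with only the groups compared and with the block, -0.27 with the GC correction, -0.12 without these replicates and -0.36 with both. With 1 µm PS, Kcnip2 had 0.62 and Kcnv2 0.07 in batch 2 and Kcnj11 -0.13 in batch 1, the GC correction gave -0.01 for Kcnh2, 0.02 for Kcnj2 and -0.08 for Kcnj11, and with the replicates out as well -0.01 for Kcnq1, -0.12 for Kcnh2 and -0.16 for Kcnj11. Between sizes, Kcna5 had 0.11 in batch 2 and Kcnv2 -0.05 in batch 1. The Kcnd2 to Kcnd3 ratio differed by 0.18 and 0.32 from ISO in batch 1 and by 0.25, 0.12 and -0.13 (between sizes) without strata. That of Kcnip2 differed by -0.07 without strata with 100 nm PS and by -0.01 between sizes in batch 1. The causes were not tested.

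The replicate numbers did not pair the libraries: same-numbered libraries correlated at -0.34 to 0.04, -0.44 to 0.23 and -0.26 to 0.13 in the 3 comparisons, and best with their own number in 0, 0 and 1 of 6 pairs. The replicate block left Kcnd3 at -0.79 (edgeR adjusted p = 0.138) and Kcnv2 at -1.92 (adjusted p = 0.124) with 100 nm PS. With a single 100 nm library in batch 2 and 26 to 210 counts of Kcnv2, depth and batch limit what these comparisons can show.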
